A study of Saccharomyces cerevisiae with 55 samples.

Results

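The genes described here are 10 budding yeast (Saccharomyces cerevisiae) genes of sulfur assimilation and methionine metabolism: MET3, MET14, MET16 and MET10 of sulfate reduction, MET17, the regulator MET28, the permease gene MUP3, STR3, and MHT1 and SAM1 of methionine and S-adenosylmethionine metabolism. They were taken by gene symbol, as the probes whose symbol in the array platform's annotation was one of these names. The list itself was chosen with earlier results of these data known, so its counts beside those of all genes describe it and do not test it. Each matched 1 probe, so 10 of the 5540 genes named by 5570 of the 6720 probes were followed. RNA was measured on 2-colour expression arrays in 15 histone H4 mutants, in which lysines 5, 8, 12 and 16 of the H4 tail are replaced by arginine, singly and in every combination. Arginine keeps the charge of lysine and cannot be acetylated. The groups were the mutants K5R, K8R, K12R and K16R with 3 samples each, K5R/K12R and K8R/K12R with 3, K5R/K8R, K5R/K16R, K8R/K16R and K12R/K16R with 4, K5R/K8R/K12R with 5, K5R/K8R/K16R with 3, K5R/K12R/K16R and K8R/K12R/K16R with 4, and K5R/K8R/K12R/K16R, called the quadruple mutant below, with 4. Every array set a mutant strain against a parental strain labelled as carrying parental H4, MDY453 on 35 arrays and MDY470 on 20, and no array set one parental strain against the other. The sources used here do not state the rest of the genotype, the growth medium or the culture conditions.

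The 55 arrays gave 54 samples of 30 mutant strains, because a pair of arrays of strain MDY487 labelled as technical replicates was averaged (r = 0.927 across named probes). Each mutant is represented by 1 to 3 strains, K8R/K12R by 1 and the quadruple mutant by 3 (MDY469, MDY486 and MDY487), and arrays of the same strain are not independent strains. MDY453 was the parental strain on every array of K5R/K12R/K16R and of the quadruple mutant, and MDY470 on every array of K8R/K12R. Values are log2 ratios centred on each array's median, likely mutant over parental, since the parental strain is in channel 1 of every array, but direction, dyes and log base were not given in the sources used here, and base 2 was inferred from a largest ratio of exactly 100. No spot intensity was available, so precision rests on how many arrays there are, and weak spots cannot be told from strong ones. Where a p-value is printed it comes from limma, 2-sided and adjusted by the Benjamini-Hochberg method over all 5540 genes, and a gene is said to have passed, or been called, at an adjusted p under 0.05. Separate cultures are not stated in the labels for every array, so these p-values measure the spread between these samples, part of which may be technical.

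Yeast takes up sulfate, activates it, reduces it to sulfide and joins the sulfide to a carbon chain to make homocysteine, from which methionine, cysteine and S-adenosylmethionine are made. The genes of this route are known to be controlled together by the activator Met4, which reaches DNA through Cbf1, Met28, Met31 and Met32 and is restrained by the ubiquitin ligase subunit Met30 when S-adenosylmethionine or cysteine is plentiful. S-adenosylmethionine is also the methyl donor for histone and other methylations.

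In the quadruple mutant all 10 genes differed from the parental strain, 7 of them higher and 3 lower, against 73.8% of all genes called, 37.1% higher and 36.6% lower. The median of the 10 fitted log2 ratios was 0.94, and that of all genes was -0.01. As the 10 genes were chosen with earlier results of these data known, these counts are no test of the pathway. Of the other 38 measured sulfur genes 11 were called higher and 18 lower, with a median of -0.15. Among the 10, the 7 higher genes were the 4 of sulfate reduction, MET28, MUP3 and STR3, and the 3 lower genes were MET17, MHT1 and SAM1. In mutants with 1 or 2 substitutions the same probes mostly lay near 0, though the MHT1 means were -0.57 to -0.22 in the doubles. In the triple mutants several lay further out, with means of -1.10 to -0.87 for MHT1 and 0.45 to 0.83 for MET28, while those of MET3 were -0.05 to 0.29. With limma 0 of the 10 were called in K5R (0.632% of all genes), K8R (0.325%) or K12R (2.87%), where 1 gene each had an unadjusted p under 0.05 (MHT1, MET17 and MHT1), and STR3 alone was called in K16R (18.4%). In the double mutants 2 were called in K5R/K8R (20.1%), 1 in K5R/K12R (27.6%), 3 in K8R/K12R (21.3%), 2 in K5R/K16R (23.6%), 4 in K8R/K16R (20.7%) and 3 in K12R/K16R (26.1%). In the triple mutants 8 were called in K5R/K8R/K12R (60%), 4 in K5R/K8R/K16R (40.3%), 9 in K5R/K12R/K16R (56.8%) and 9 in K8R/K12R/K16R (46.6%). Of these 56 calls 12 were lost when some 1 sample of the mutant was left out, none of them in the quadruple mutant, and they are named with their genes below. Each mutant was tested against 0. Variation of the parental strain is part of every ratio, and without arrays of parental strains alone it could not be estimated apart.

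**Figure D1:**
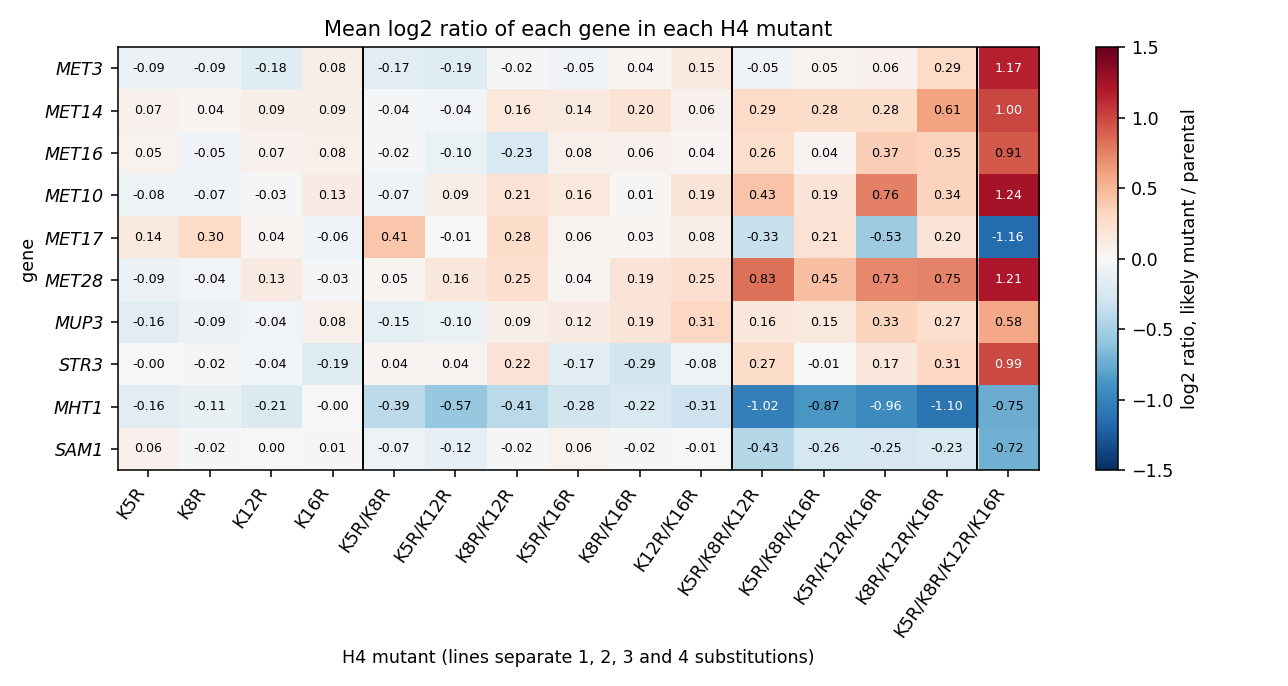
Mean median-centred log2 ratio (likely mutant over parental, colour and printed number) of each of the 10 genes (rows) in each of the 15 H4 mutants (columns, 3 to 5 samples each), with vertical lines between 1, 2, 3 and 4 substitutions. The quadruple mutant holds the highest mean of MET3 (1.17), MET10 (1.24), MET28 (1.21) and STR3 (0.99) and the lowest of MET17 (-1.16), and MHT1 is lower in each triple mutant than in the quadruple mutant (-0.75).

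MET3 encodes ATP sulfurylase, which activates sulfate in the first step of assimilation. Its log2 ratio in the quadruple mutant was 1.59 and 1.40 in the samples of strain MDY486, 1.07 in MDY469 and 0.62 in MDY487. All 4 lay above each of the other 50 samples, which ranged from -0.32 to 0.41. The mean was 1.17 ± 0.42 (SD, n = 4), or 2.25-fold higher. The triple mutants held means of only -0.05 to 0.29, and K8R/K12R/K16R (0.29, samples from 0.07 to 0.41) was the only other mutant in which MET3 was called. Without the MDY485 sample, the only one of that mutant against MDY470, the mean there was 0.27 and the call was lost (adjusted p = 0.0531).

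MET14 encodes adenylylsulfate kinase, the second activation step. Its log2 ratio was 1.11 and 1.03 in the samples of MDY486, 1.01 in MDY469 and 0.85 in MDY487, with a mean of 1.00 ± 0.11 (SD, n = 4). The 4 values had the smallest SD of the 10 genes, and the lowest of them fell below the highest sample of a triple mutant, 0.87. MET14 was called in all 4 triple mutants, with means from 0.28 to 0.61, and among the doubles in K8R/K16R (0.20 ± 0.19, SD, n = 4), where the call rests on 1 sample of MDY480 at 0.49, without which the mean was 0.11 (adjusted p = 0.387). The call in K5R/K8R/K16R was lost without the MDY483 sample (0.22, adjusted p = 0.136), the only one of that mutant against MDY470.

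MET16 encodes the reductase that turns the activated sulfate into sulfite. It stood at 1.12 and 1.03 in MDY486, 0.89 in MDY469 and 0.62 in MDY487, with a mean of 0.91 ± 0.22 (SD, n = 4), and these samples did not overlap the other 50, the highest of which was 0.51. The triple mutants held means of 0.04 to 0.37. MET16 was called in those 3 of them that carry K12R, and its mean in K5R/K8R/K16R was 0.04.

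MET10 encodes a subunit of sulfite reductase, which makes sulfide. Its quadruple samples were 1.52 and 1.27 in MDY486, 1.17 in MDY469 and 1.01 in MDY487, with a mean of 1.24 ± 0.21 (SD, n = 4), or 2.37-fold higher. They lay above the other 49 samples with a value (1 sample of K5R/K8R has none), of which the highest was 0.89. MET10 also differed among the triple mutants: it was called in the 3 that carry K12R, at 0.43 in K5R/K8R/K12R, 0.76 in K5R/K12R/K16R and 0.34 in K8R/K12R/K16R, and its mean was 0.19 in K5R/K8R/K16R. MET3, MET10, MET16 and STR3 were the 4 genes of the 10 whose quadruple samples lay outside the range of every other sample, against 12% of all genes (667 of 5540).

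MET17, also called MET15 or MET25, encodes the enzyme that joins sulfide to O-acetylhomoserine to make homocysteine, and it moved against the reduction genes. In the quadruple mutant its log2 ratio was -1.08 and -1.29 in MDY486, -1.59 in MDY469 and -0.68 in MDY487, a mean of -1.16 ± 0.38 (SD, n = 4), or 2.23-fold lower. Only the MDY487 value fell inside the range of the other samples, whose lowest was -0.73. With 1 or 2 substitutions MET17 was called in K5R/K8R alone, where it was higher, at 0.23, 0.65, 0.45 and 0.32.

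The triple mutants separated by which pair of lysines was missing. MET17 was called lower in the 2 triple mutants that carry both K5R and K12R, K5R/K8R/K12R at -0.33 ± 0.15 (SD, 5 samples) and K5R/K12R/K16R at -0.53 ± 0.15 (SD, 4 samples), and their 9 samples ranged from -0.73 to -0.07. The 7 samples of the 2 triple mutants without that pair ranged from 0.07 to 0.35, so the groups did not overlap. The double mutant K5R/K12R itself lay at -0.04, -0.01 and 0.01, inside the range of the other double mutants (-0.15 to 0.65). In the model with pairwise products, the K5R by K12R product of MET17 was -0.94 ± 0.12 (SE, adjusted p = 7.72e-08), and without the quadruple mutant it was -0.75 ± 0.11 (adjusted p = 1.86e-06). This product was called for 22.7% of all genes, and without the quadruple mutant for 22.9%. The grouping by K5R and K12R was made after the values had been seen, and how many of all genes separate in this way was not counted.

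**Figure D2:**
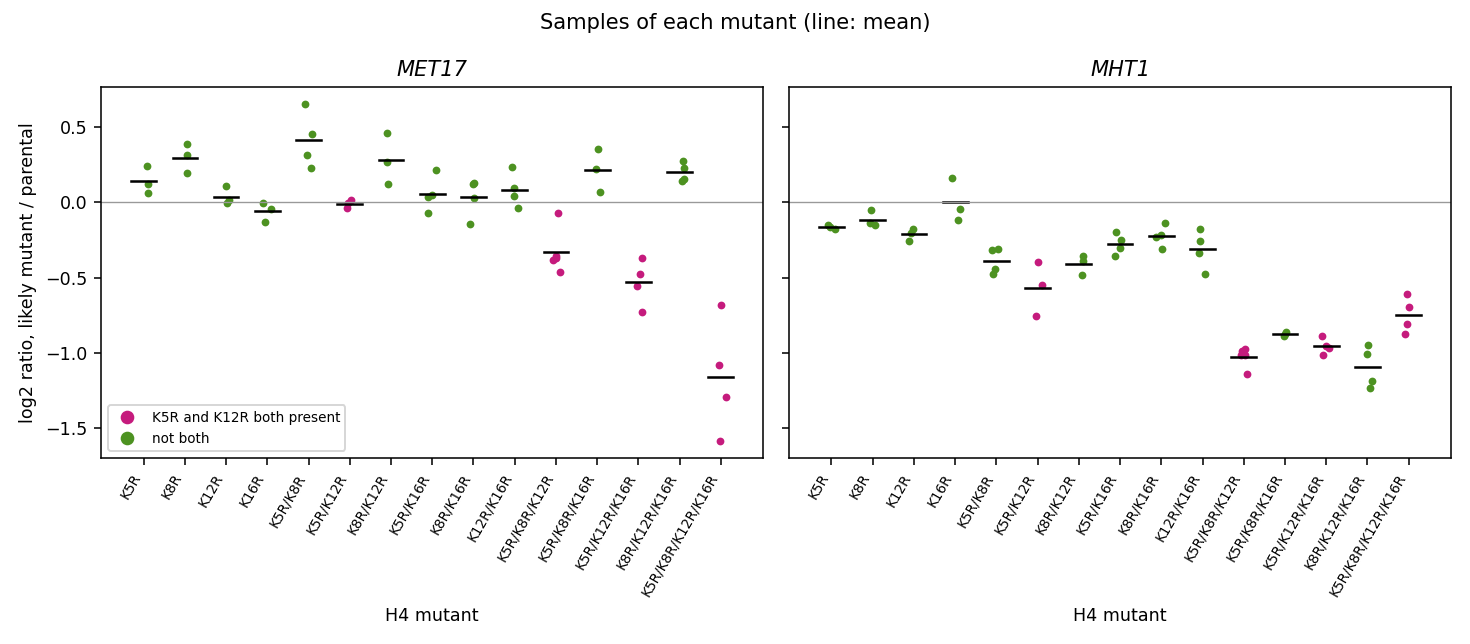
Log2 ratio (likely mutant over parental) of MET17 and MHT1 in every sample of the 15 H4 mutants, with points coloured by whether K5R and K12R are both present and a line at each mutant's mean. MET17 is below 0 in all 13 samples with 3 or 4 substitutions that carry K5R and K12R, and MHT1 is near -1 in the 4 triple mutants and at -0.75 in the quadruple mutant.

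MET28 encodes a basic leucine zipper cofactor that helps Met4 and Cbf1 bind DNA. It was the only one of the 7 higher genes that was called higher in several mutants with 2 substitutions, K8R/K12R (0.25), K8R/K16R (0.19) and K12R/K16R (0.25). The K8R/K12R and K8R/K16R calls were lost when single samples were left out, with means down to 0.20 and 0.15 (adjusted p up to 0.129 and 0.153). It was called in every triple mutant, at 0.83 in K5R/K8R/K12R, 0.45 in K5R/K8R/K16R, 0.73 in K5R/K12R/K16R and 0.75 in K8R/K12R/K16R. The quadruple samples were 1.23 and 1.39 in MDY486, 1.32 in MDY469 and 0.92 in MDY487, with a mean of 1.21 ± 0.21 (SD, n = 4). The MDY487 value lay below the highest triple sample, 0.96, so the quadruple samples overlapped the triple samples.

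MUP3 encodes a low-affinity methionine permease. Its quadruple samples were 0.84 and 0.55 in MDY486, 0.58 in MDY469 and 0.36 in MDY487, with a mean of 0.58 ± 0.20 (SD, n = 4), the smallest change of the 7 higher genes. The lowest of them was below the highest triple sample, 0.43, and the highest double sample, 0.63. Apart from the quadruple mutant MUP3 was called only in mutants carrying both K12R and K16R, with means of 0.31 in K12R/K16R, 0.33 in K5R/K12R/K16R and 0.27 in K8R/K12R/K16R. The K12R/K16R call rests on the MDY481 sample at 0.63, the only one of that mutant against MDY470, without which the mean was 0.20 (adjusted p = 0.122).

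STR3 encodes cystathionine beta-lyase, which makes homocysteine from cystathionine and so moves sulfur from cysteine towards methionine. Its quadruple samples were 1.05 and 1.11 in MDY486, 1.19 in MDY469 and 0.63 in MDY487, with a mean of 0.99 ± 0.25 (SD, n = 4), above the other 50 samples (-0.37 to 0.34). The MDY487 value is the mean of technical arrays at 1.06 and 0.19, so the separation of that sample rests on the average. STR3 was the one gene of the 10 called in a single mutant, at -0.19 in K16R, and it was also called lower in K5R/K16R (-0.17) and K8R/K16R (-0.29). It was called higher in K8R/K12R (0.22) and in the 3 triple mutants with K12R (0.27, 0.17 and 0.31), and its mean in K5R/K8R/K16R was -0.01. Of these calls those in K16R, K5R/K16R, K8R/K12R and K5R/K12R/K16R were lost when single samples were left out, with adjusted p up to 0.240, 0.103, 0.131 and 0.116, the last without the MDY467 sample at 0.32, which left a mean of 0.12.

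MHT1 encodes S-methylmethionine-homocysteine methyltransferase, which makes methionine from S-methylmethionine, and SAM1 encodes one of the S-adenosylmethionine synthetases. MHT1 fell with each added substitution up to the third. Its samples ranged from -0.26 to 0.16 in the single mutants, from -0.75 to -0.14 in the doubles and from -1.24 to -0.86 in the triples, and it was called lower in all 6 double and all 4 triple mutants. In the quadruple mutant the samples were -0.81, -0.69, -0.61 and -0.87, a mean of -0.75 ± 0.12 (SD, n = 4), which is less of a fall than in the triple mutants, whose means were -1.02, -0.87, -0.96 and -1.10. The quadruple mutant lay 0.24 ± 0.06 (SE) above the mean of the triple mutants (adjusted p = 0.0014), and all but 1 of its 4 samples lay above all 16 triple samples.

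MHT1 is the sixth protein-coding gene from the nearer end of chromosome XII in the R64 gene table. The 3 genes on either side are described here because some of them were seen to be lowest in the triple mutants, as MHT1 is, so their values are given with no test. The gene on one side is AYT1, an acetyltransferase gene, and on the other MMP1, which encodes the S-methylmethionine permease. HSU1, the third gene on the MMP1 side, has a product that has been linked to the use of sulfide. With 1, 2, 3 and 4 substitutions the means were -0.05, -0.31, -0.67 and -0.28 for AYT1, 0.20, 0.09, -0.49 and -0.18 for MMP1, and -0.25, -0.55, -0.90 and -0.16 for HSU1. MMP1 thus had the same order of levels as MHT1, while the quadruple mutant lay above the double mutants for AYT1 and above the single mutants for HSU1. The other 3 genes also had a higher mean in the quadruple mutant than in the triple mutants, PAU18 at 1.04 and 0.81, GTT2 at 0.62 and 0.31, and YLL066C at -0.05 and -0.20.

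SAM1 stayed near 0 with 1 or 2 substitutions, with means from -0.12 to 0.06, and was called lower in all 4 triple mutants, at -0.43, -0.26, -0.25 and -0.23. The calls in K5R/K8R/K16R and K8R/K12R/K16R were lost when single samples were left out, with adjusted p up to 0.117 and 0.0541 and means no nearer 0 than -0.21. In the quadruple mutant its samples were -0.81 and -0.90 in MDY486, -0.73 in MDY469 and -0.42 in MDY487, with a mean of -0.72 ± 0.21 (SD, n = 4). The MDY487 value lay inside the range of the triple samples (-0.54 to -0.15). SAM2, which encodes the other S-adenosylmethionine synthetase and is close in sequence, so that the probes may not tell the genes apart fully, stood at -0.07 ± 0.07 (SE) in the quadruple mutant (adjusted p = 0.34). Strain MDY487 gave the smallest change of the quadruple samples for every one of the 10 genes except MHT1, for which it gave the largest. Its values average a pair of technical arrays, which stood at 1.06 and 0.19 for STR3 and at 0.58 and 0.15 for MUP3. For STR3 and MUP3 the higher array alone was not below all the other quadruple samples.

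The changes were next set against the number of substitutions, by comparing the average of the mutants with a given number with the average of those with 1 fewer. This comparison was added after the values had been seen. No sample has 0 substitutions, so the first step is the average of the single mutants tested against a log2 ratio of 0. A shift shared by all arrays would enter that step and drop out of the others. From 0 to 1 substitution 1 of the 10 genes passed (39% of all genes), MHT1 at -0.12 ± 0.03 (SE), but 6 did with arrays scaled to the same spread (64.4% of all genes on that scale) and 3 without strain MDY487 (42.2%). From 1 to 2 substitutions 2 passed (9.82%), MET28 at 0.16 ± 0.05 and MHT1 at -0.24 ± 0.04. From 2 to 3 substitutions 9 passed (47.7%), all except MET3 (0.14 ± 0.06, adjusted p = 0.0537), and the largest were MHT1 at -0.62 ± 0.04 and MET28 at 0.53 ± 0.05.

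From 3 to 4 substitutions all 10 genes passed (54.4% of all genes), 8 of them higher (30%) and 2 lower (24.4%). MET3 gained 1.04 ± 0.10 (SE), STR3 gained 0.80 ± 0.06, MET10 gained 0.80 ± 0.10, MET16 gained 0.65 ± 0.10, MET14 gained 0.63 ± 0.08, MET28 gained 0.52 ± 0.07 and MUP3 gained 0.35 ± 0.08. MET17 lost the most, at -1.05 ± 0.10, and SAM1 changed by -0.41 ± 0.09. MHT1 was the gene that turned back, by 0.24 ± 0.06.

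The spread of all log2 ratios on an array also widened with each substitution, the median absolute deviation having a median of 0.146, 0.199, 0.314 and 0.520 with 1, 2, 3 and 4 substitutions. When every array was scaled to the same spread, 4 of the 10 genes passed from 3 to 4 substitutions, against 17.8% of all genes on that scale: MET3 (0.48), STR3 (0.33), MET17 (-0.49) and MHT1 (0.47). The other 6 kept their sign with smaller values on that scale, from 0.02 for MET28 to 0.25 for MET10 among the higher genes. Without MDY487 all 10 passed, with MET3 at 1.25 and STR3 at 0.94.

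**Figure D3:**
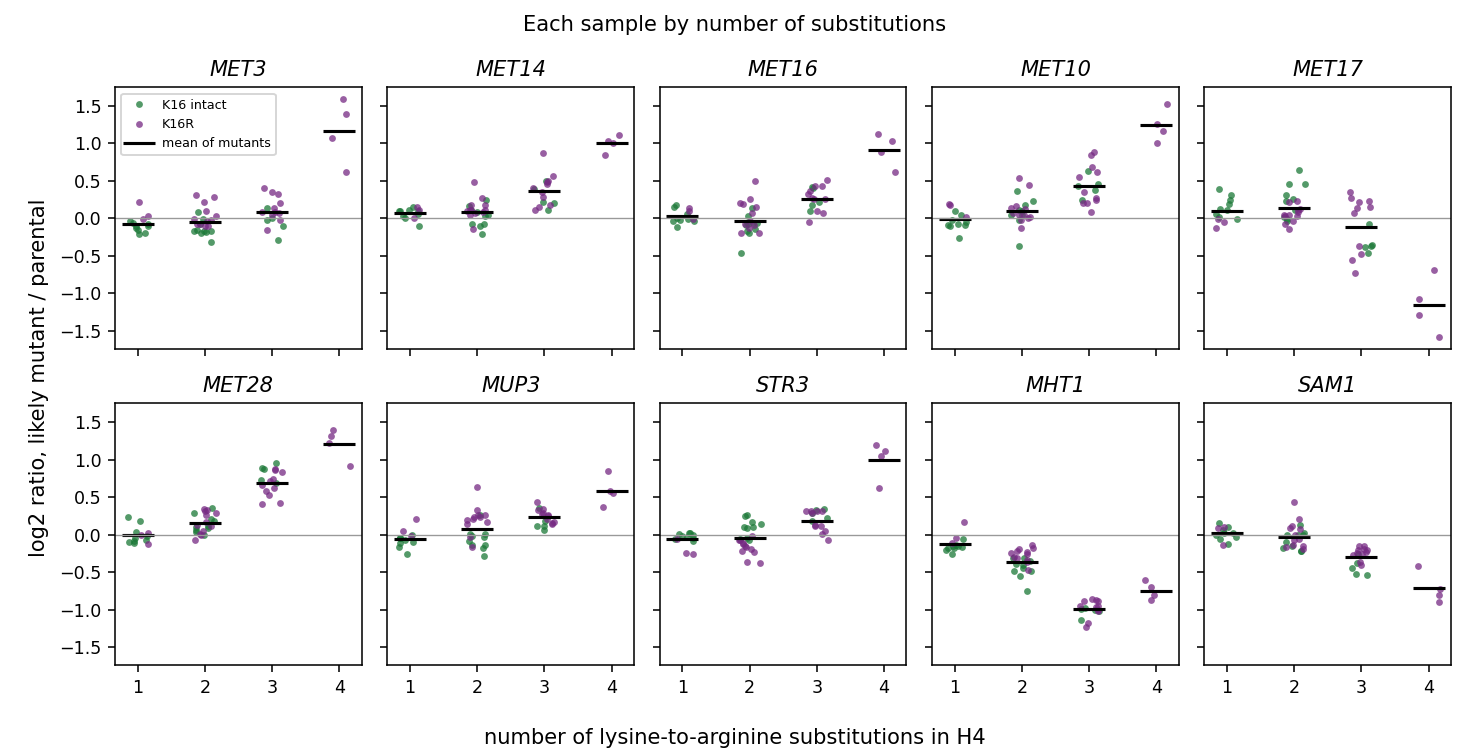
Median-centred log2 ratio (likely mutant over parental) of each gene in every sample against the number of substitutions, coloured by whether lysine 16 is intact or replaced, with a bar at the mean of the mutants with that number. Up to 3 substitutions MET3 lies between -0.32 and 0.41 and STR3 between -0.37 and 0.34, and with 4 both lie between 0.62 and 1.59. MET28 rises from 2 substitutions on and MHT1 is lowest with 3.

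The quadruple mutant was compared with each triple mutant to see the effect of losing each lysine last. Losing lysine 16 last, from K5R/K8R/K12R, 10 of the 10 genes passed (42.7% of all genes). Losing lysine 12 last, from K5R/K8R/K16R, 9 passed (47.8%), all except MHT1 (0.13, 95% interval -0.04 to 0.30). Losing lysine 8 last, from K5R/K12R/K16R, 9 passed (38.1%), all except MUP3 (0.25, interval 0.04 to 0.46, adjusted p = 0.0564). Losing lysine 5 last, from K8R/K12R/K16R, 10 passed (47%). Within the arrays against MDY453, the parental strain of all quadruple arrays, the counts were 8, 9, 8 and 8 in the same order, against 24.4%, 27.3%, 26.2% and 27.4% of all genes. With arrays scaled to the same spread they were 4, 6, 3 and 3, against 12.5%, 15.2%, 9.3% and 14.8%.

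The sizes differed by gene and by the lysine lost last. MET3 gained between 0.84 ± 0.12 (SE, lysine 5 last) and 1.17 ± 0.12 (lysine 16 last). MET10 gained 1.04 ± 0.13 when lysine 12 was lost last and 0.46 ± 0.13 when lysine 8 was. The MET17 difference was -1.36 ± 0.13 and -1.35 ± 0.12 when lysine 12 or lysine 5 was lost last, the steps that complete the K5R and K12R pair, and -0.64 ± 0.12 and -0.83 ± 0.12 for lysines 8 and 16. These contrasts share the quadruple samples, and differences between them were not tested.

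Site effects, the mean change a substitution added among the mutants in an additive model with an intercept, were small beside the quadruple values. The unmutated state is not a sample in the fit, so the intercept takes up any change shared by all mutants. K5R passed for 7 of the 10 genes (38.8% of all genes), K8R for 8 (37.4%), K12R for 10 (50.4%) and K16R for 9 (39.3%). With no intercept they passed for 1 (17.6%), 2 (13.3%), 5 (32.1%) and 2 (22.7%). With the intercept the largest were MET28 with K12R (0.54 ± 0.05, SE), MET10 with K12R (0.45 ± 0.07), MHT1 with K12R (-0.43 ± 0.06), MET17 with K12R (-0.42 ± 0.09) and MET3 with K16R (0.40 ± 0.08). STR3 was the gene for which K16R did not pass (0.10, interval -0.02 to 0.22, adjusted p = 0.173). Averaged over K5R, K8R and K12R all 10 passed (63.9%), with the same signs as in the quadruple mutant.

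K16R differed from the mean of the other 3 sites for 2 of the 10 genes, near the share of all genes (19.5%). The count therefore does not set the 10 genes apart, and with one value per strain 1 gene passed (14.3%). MUP3 rose more with K16R, by 0.20 ± 0.05 (SE, adjusted p = 0.0025), with a K16R effect of 0.33 and a mean of the others of 0.13. For STR3 the difference was -0.21 ± 0.07 (adjusted p = 0.0148), between a K16R effect of 0.10, which was not called, and a mean of the others of 0.31. Within the arrays against MDY453 neither difference passed (0.14 for MUP3, adjusted p = 0.246, and -0.24 for STR3, adjusted p = 0.155), and within those against MDY470 both did (0.26 and -0.21). Where a mutant with K16R was paired with the one that lacks only that substitution, MUP3, MET3, MET10 and MET28 were each above their partner in 7 of 7 pairs, and STR3 in 3 of 7. The called pairs were 3 for MUP3, 1 for MET3, 2 for MET10, 4 for MET28 and 1 for STR3. For each gene they include the pair of the quadruple mutant and K5R/K8R/K12R. How many of all genes were higher in 7 of 7 pairs was not counted, and the mix of parental strains differs within pairs. The mean over these 7 pairs passed for 9 of the 10 genes (43%), all except STR3 (0.06 ± 0.03, adjusted p = 0.162).

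The site effects depend on the quadruple mutant to a different degree in each gene. Without it, K5R passed for 6 genes (38.8% of all genes), K8R for 5 (37.7%), K12R for 9 (52.9%) and K16R for 7 (39.7%), and the average of the other 3 sites for 9 (60%). MET3 went from 0.26 ± 0.08 (SE) to 0.08 ± 0.04 for K8R and from 0.22 ± 0.05 to 0.04 ± 0.03 for the average of K5R, K8R and K12R, and its K16R effect from 0.40 to 0.22 ± 0.04, still called. MET28 changed little, from 0.54 to 0.50 for K12R and from 0.34 to 0.30 for K16R. MHT1 went further below 0, from -0.20 to -0.32 for K16R and from -0.43 to -0.55 for K12R. Without the quadruple mutant K16R differed from the mean of the others for 4 genes (31.1%), MET3 at 0.18 and MHT1 at 0.16 in addition to MUP3 and STR3.

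Within the arrays against MDY453, K16R passed for 5 of the 10 genes (24.2% of all genes), MET3 (0.45), MET10 (0.42), MET14 (0.34), MET28 (0.31) and MUP3 (0.32), and with MDY470 as the parental strain, where no quadruple mutant was measured, for 4 (12.5%), MET3 (0.23), MET28 (0.26), MUP3 (0.31) and MHT1 (-0.26). With no intercept in the model it passed for 2 (22.7%). For SAM1 the K16R effect (-0.13, adjusted p = 0.0381) lost its call when any of 8 of the 54 samples was left out, and for MET16 the K8R effect (0.17, adjusted p = 0.0497) did so for 33.

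**Figure D4:**
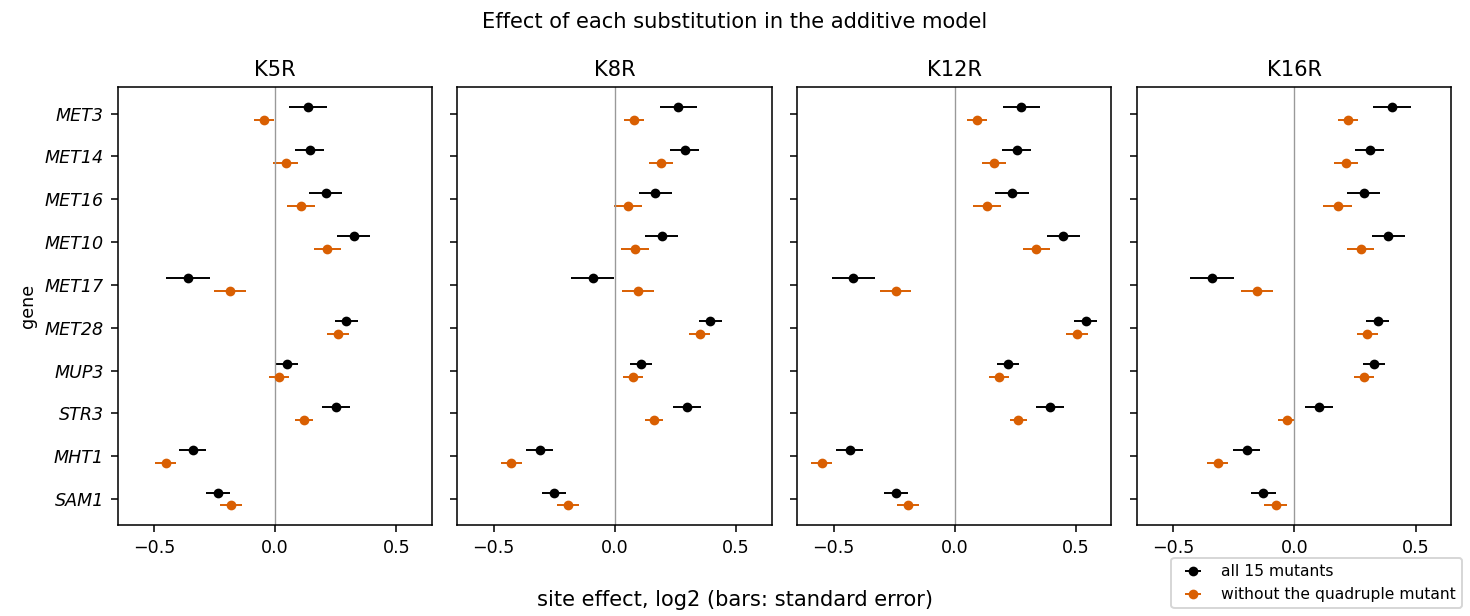
Effect of each substitution on each gene in the additive model (log2, points, with bars of 1 standard error), with all 15 mutants (black) and without the quadruple mutant (orange). Without the quadruple mutant the MET3 and STR3 points lie lower at every site, those of MET28 differ by less than 0.05, and those of MHT1 lie further below 0.

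Whether the substitutions added up was tested with the 6 pairwise products, and 30 of the 60 products of the 10 genes passed. With one value per strain 18 passed, and with arrays scaled to the same spread 5, where 1.23% to 6.44% of all genes were called for a product. The share of all genes called was 9.35% for K5R by K8R, where 3 of the 10 genes passed, 22.7% for K5R by K12R (7 genes), 12% for K5R by K16R (5), 12.5% for K8R by K12R (7), 8.29% for K8R by K16R (3) and 12.2% for K12R by K16R (5). MET3 and STR3 passed in all 6 products, each above 0, from 0.34 to 0.56 for MET3 and from 0.26 to 0.50 for STR3. MUP3 and MHT1 passed in 0 of 6, and 0 of the MUP3 products and 1 of those of MHT1 had an unadjusted p under 0.05.

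Leaving out the quadruple mutant changed which genes passed. The number of calls was then 22, and MET3 passed in 0 of 6 products (2 at an unadjusted p under 0.05), with values from 0.01 to 0.21, and STR3 in 2. MET28 passed in 6 of 6 instead of 2, from 0.30 to 0.45 without the quadruple mutant. MHT1 passed in 6 of 6 with the sign below 0, from -0.48 to -0.31, while with the quadruple mutant its 6 products were between 0.06 and 0.23. Without the quadruple mutant the share of all genes called, and the count of the 10, was 9.24% and 2 for K5R by K8R, 22.9% and 6 for K5R by K12R, 7.74% and 2 for K5R by K16R, 11.2% and 5 for K8R by K12R, 6.34% and 3 for K8R by K16R, and 9.4% and 4 for K12R by K16R.

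The quadruple mutant was also set against the sum of the 4 single mutants, an expectation in which each substitution acts alone. Here 9 of the 10 genes passed (41.4% of all genes). MET17 lay below that sum by -1.59 ± 0.22 (SE, adjusted p = 1.01e-07), and MET3 lay 1.42 ± 0.22 above it, MET10 1.27 ± 0.22, STR3 1.24 ± 0.14 and MET28 1.22 ± 0.16. For MHT1 the difference was -0.25, with a 95% interval of -0.53 to 0.03.

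The rest of the sulfur pathway was described from gene lists by step. Of the other 38 measured sulfur genes 11 were called higher and 18 lower in the quadruple mutant, and 9 were not called, against 37.1% higher and 36.6% lower among all genes, the shares beside which the counts by step stand too. Both sulfate permease genes were higher, SUL2 at 1.37 ± 0.08 (SE) and SUL1 at 0.25 ± 0.07. The SUL2 means in the triple mutants were 0.21, 0.30, 0.30 and 0.44. Of the 8 sulfate reduction genes 6 were higher, which adds to the 4 members MET5, the other sulfite reductase subunit (0.94 ± 0.08), and MET1, which makes its siroheme cofactor (1.08 ± 0.08). MET8, which completes siroheme, was lower at -0.14 ± 0.06, and MET22, a phosphatase that clears the by-product of sulfate reduction, was not called (-0.13 ± 0.07). The MET8 means of the other mutants ran from -0.18 (K8R) to 0.03 (K12R/K16R), so its quadruple value lay among them. Those of MET1 ran from 0.11 (K8R) to 0.35 (K5R/K12R/K16R).

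In the later steps called genes lay on both sides. Of the 6 genes of homocysteine and methionine synthesis 2 were higher and 3 lower. MET13, a methylenetetrahydrofolate reductase (0.88 ± 0.08, SE), and MET6, the methionine synthase (0.61 ± 0.11), were higher, and MET17, MET7 (-0.33 ± 0.06) and MET12 (-0.32 ± 0.07) were lower. Of 6 genes of transsulfuration and glutathione 2 were higher, STR3 and STR2 (0.22 ± 0.06), and 3 lower, CYS4 (-0.43 ± 0.08), GSH1 (-0.16 ± 0.07) and GSH2 (-0.48 ± 0.05). STR2 and STR3 carry sulfur from cysteine to homocysteine and CYS4 works the other way, towards cysteine.

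Of 10 genes of the S-adenosylmethionine cycle and salvage 2 were higher and 5 lower. SAH1, which splits S-adenosylhomocysteine, was higher at 0.67 ± 0.10 (SE), and the methionine salvage genes MRI1 (-0.76 ± 0.06), UTR4 (-0.56 ± 0.05) and MDE1 (-0.55 ± 0.08) were lower, as were MHT1 and SAM1. Of the other salvage genes MEU1 was higher (0.21 ± 0.06) and ADI1 was not called (0.06 ± 0.07), both named after their values were seen. Of 7 transport genes 2 were higher, MUP3 and the high-affinity permease gene MUP1 (0.41 ± 0.08), and 3 lower. All 3 genes of sulfonate and organic sulfur use were lower, most of all the sulfatase gene BDS1 at -1.28 ± 0.08, which was already at -1.41 ± 0.22 (SD, n = 4) in K5R/K12R/K16R.

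Among the 6 regulators MET28 and MET30, the gene of the subunit that restrains Met4 (0.70 ± 0.10, SE), were higher, and CBF1 (-0.28 ± 0.08), MET31 (-1.01 ± 0.08) and MET4 were lower. MET4 was named after its values were seen: its mean was between 0.16 and 0.22 in the triple mutants and -0.33 ± 0.30 (SD, n = 4) in the quadruple mutant. The quadruple samples were -0.62 and -0.56 in MDY486, -0.08 in MDY469 and -0.06 in MDY487, so the low values are those of 1 of the 3 strains. Outside sulfur, a list of 17 measured genes, holding GCN4 and known targets of its product in amino acid synthesis, had a median of 0.01 in the quadruple mutant, with 6 higher and 5 lower, and GCN4 itself was at 1.12 ± 0.06.

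**Figure D5:**
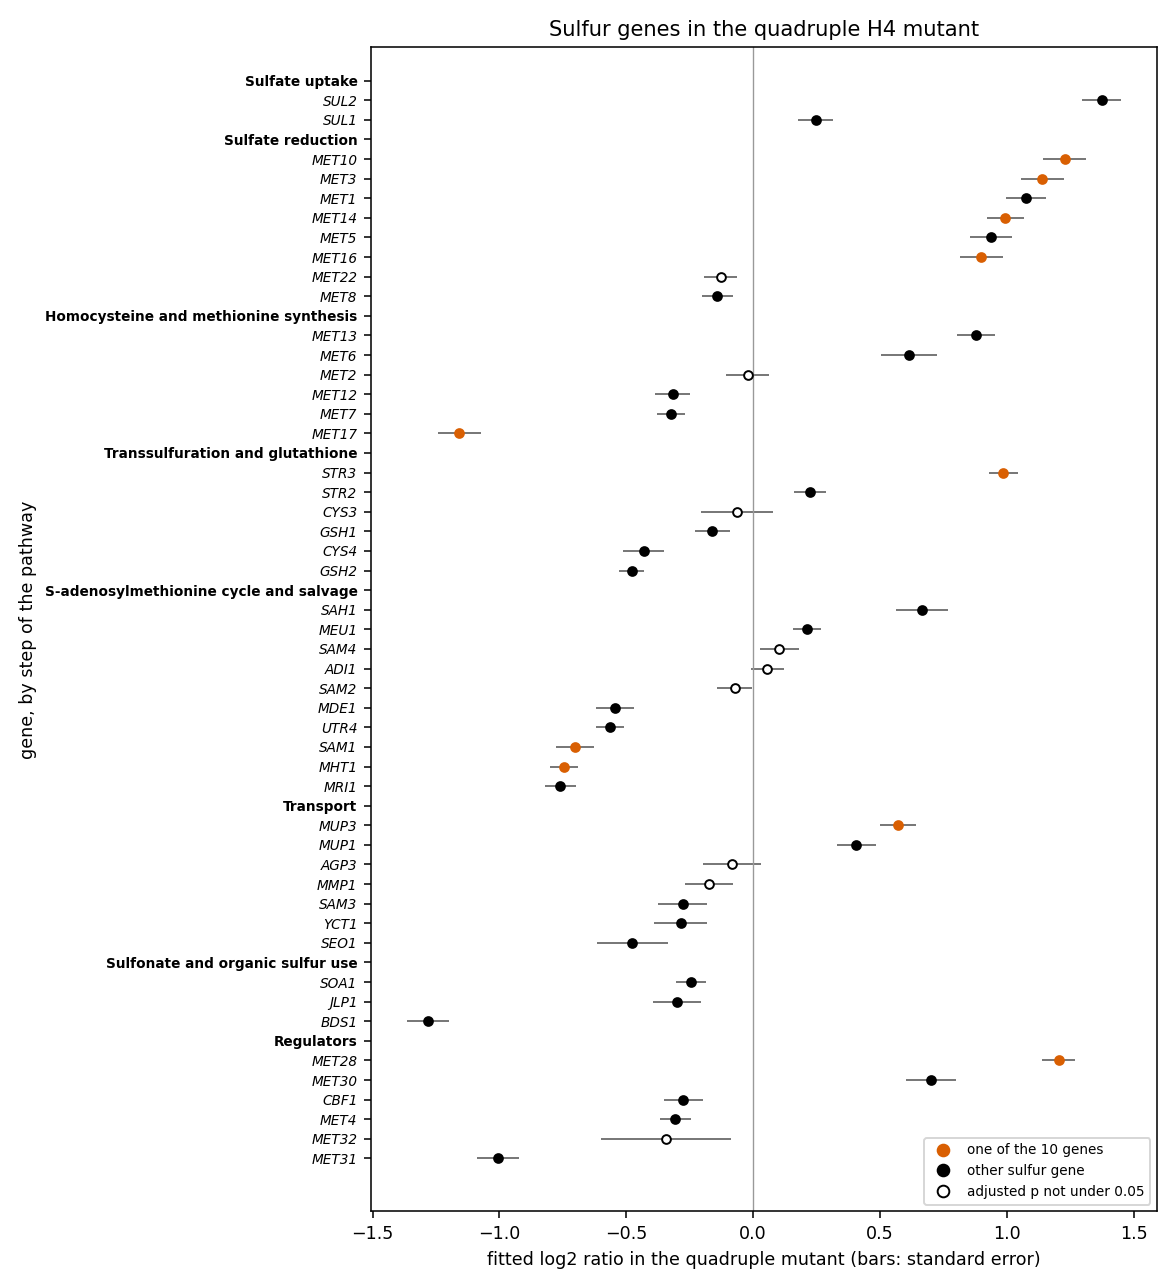
Fitted log2 ratio (likely mutant over parental) of each measured sulfur gene in the quadruple mutant, by step of the pathway, with bars of 1 standard error; orange marks the 10 genes and open points those with an adjusted p not under 0.05. Sulfate uptake and most reduction genes lie to the right, led by SUL2 at 1.37 and MET10, while the salvage genes MRI1, UTR4 and MDE1 and, furthest, BDS1 (-1.28) lie to the left.

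Other groups of genes moved in the same samples, and their part in these results was not tested. The mean of 8 general stress genes had a median over samples of 0.20, 0.57, 1.52 and 2.59 with 1, 2, 3 and 4 substitutions, and in the quadruple samples it was lowest in MDY487 (2.12), as were the absolute changes of 9 of the 10 genes. The mean of 7 ribosomal protein genes went from 0.14 to -0.26. The mean of 7 genes specific to mating type a was between -3.19 and -2.42 in the quadruple samples, and all 7 were called lower with K16R in the additive model, with a median effect of -2.54. In these bulk samples fewer cells with a transcript and less of it per cell cannot be told apart.

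Over the 15 mutant means, each gene's pattern was set against every other gene as a description, with the points sharing samples and parental strains. The quadruple mutant is 1 of these points and can weigh heavily, and r was not computed without it. For MET3 it stood at 1.17, against -0.19 to 0.29 in the other mutants. MET3 was most like HSP30 (r = 0.970) and SUL2 (0.968), MET28 most like HSP12 (0.991) and YMR090W (0.990), and MET10 most like SDH1 (0.986) and AGP1 (0.983). MET14 was most like HNT1 (0.972) and DNL4 (0.965), MET16 like SUE1 (0.973) and SPG1 (0.964), MUP3 like YDR476C (0.940) and CAR1 (0.938), and STR3 like HAP1 and ALG14 (0.954 each). Among the genes that were lower, MET17 was most like NPL6 (0.953) and ATO3 (0.921), SAM1 like ELP2 (0.982) and SER1 (0.978), and MHT1 like ATF1 (0.977) and MST27 (0.961). Of these, SUL2 was the only gene of the sulfur lists.

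The 7 higher genes correlated less when the quadruple mutant was left out, with no test made of this. Their 21 pairwise correlations over 15 mutants had a median of 0.835, from 0.593 to 0.913, and over the 14 mutants without it a median of 0.669, from 0.158 to 0.838. The lowest without it was that of MET3 with STR3, which were higher with K16R in 7 and in 3 of the 7 pairs of mutants.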

How the data were processed

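The deposited values are ratios on a log scale per probe and array, read here as log2 because the largest ratio is then exactly 100; log base, background correction, normalization, dyes and direction were not given in the sources used here. The 10 genes and the gene lists were chosen with earlier results of these data known. Values at the ratio limit of 100 were treated as missing, each array was centred on its median over named probes, and probes of a gene were averaged. Gene names came from the platform annotation and were matched to the R64 table for 5565 of 5570 probes. limma 3.58.1 in R 4.3.3 (lmFit, eBayes) fitted all 5540 genes with the mutant strain as a random block: an additive model of the 4 sites (correlation 0.346), one with pairwise products (0.265), and one mean per mutant (0.205). The code was tested on simulated data. Replicate numbers in the labels did not pair the samples (median r of same-numbered samples 0.0268 over 48 pairs). All 10 genes are named; other sulfur genes are named where K16R or the mean of K5R, K8R and K12R passed, at most 4 per list and effect by smallest adjusted p, and the 2 genes most like each by Pearson r. Alternatives covered centring, scaling, limits, blocks, parental strain and left-out samples.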

Additional observations from a re-analysis of the deposited data

Results flagged for a closer look

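Of 79 groups of 4 or 5 samples examined, 7 held a sample far from the others; chance gives about 1 in 20 such groups. These were MET3 in K5R/K16R (MDY461, 0.0384, the others below 0), MET14 in K8R/K16R (MDY480, 0.491), MET17 in K5R/K8R/K12R (MDY465, -0.0695), MET28 in K12R/K16R (MDY481, 0.0490), STR3 in K5R/K12R/K16R (MDY467, 0.316), MHT1 in K5R/K8R/K12R (MDY465, -1.14) and SAM1 in K12R/K16R (MDY481, 0.429). The same MDY481 sample stood apart for MET28 and SAM1. It is the only K12R/K16R sample of its strain and the only one against MDY470, so sample, strain and parental strain cannot be told apart there.

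In the model with pairwise products 30 of 60 products passed (log2, limma), where 8.29% to 22.7% of all genes were called for a product. Without the quadruple mutant 22 passed, with MET3 in 0 of 6 and STR3 in 2 of 6. The values below are those with the quadruple mutant. MET3 gave 0.42 for K5R by K8R, 0.39 for K5R by K12R, 0.34 for K5R by K16R, 0.53 for K8R by K12R, 0.43 for K8R by K16R and 0.56 for K12R by K16R. STR3, in the same order, gave 0.29, 0.26, 0.35, 0.49, 0.28 and 0.50. MET10 gave 0.48 for K5R by K12R, 0.40 for K5R by K16R, 0.36 for K8R by K12R and 0.37 for K12R by K16R. MET14 gave 0.30 for K5R by K16R, 0.46 for K8R by K12R, 0.39 for K8R by K16R and 0.29 for K12R by K16R. MET16 gave 0.40 for K5R by K12R, 0.39 for K8R by K12R and 0.44 for K12R by K16R. MET17 went below 0, with -0.46 for K5R by K8R, -0.94 for K5R by K12R, -0.45 for K5R by K16R and -0.48 for K8R by K12R. MET28 gave 0.29 for K5R by K12R and 0.26 for K8R by K12R, and SAM1 gave -0.30 for K5R by K12R.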

How the results depend on the processing

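All 10 genes were called in the quadruple mutant under all 12 other settings tried for it and whichever sample was left out. Counts of called genes that moved by over 1.5 times follow. With arrays scaled to one spread the quadruple minus K5R/K8R/K12R, K5R/K12R/K16R and K8R/K12R/K16R gave 4, 3 and 3, the step from 0 to 1 substitution 6, from 3 to 4 4, and the products 5. On that scale MET28 turned sign against K5R/K8R/K12R (-0.014) and K8R/K12R/K16R (-0.091), MET14 against K8R/K12R/K16R (-0.0617), and MHT1 against the sum of single mutants (0.54). Arrays against MDY453 gave 5 for K16R (24.2% of all genes) and 0 for its difference from the other sites (9.08%, limma, with 3 at an unadjusted p under 0.05). They gave 33 calls over the mutants, instead of 56, but none of these arrays is of K8R/K12R, which held 3 of the 56. The share of all genes called fell in each of the mutants measured, from 20.1% to 0.343% in K5R/K8R and from 73.8% to 68.8% in the quadruple mutant. Arrays against MDY470 gave 1, 3, 4 and 4 for K5R, K8R, K12R and K16R, against 6.34%, 13.6%, 21.7% and 12.5% of all genes. They gave 3 for the mean of the first 3 sites (30.8%), with MET10 at -0.019 for K8R and MET16 at -0.071 for K12R. One value per strain gave 1 for the K16R difference (14.3% of all genes), 1 from 1 to 2 substitutions (6.25%) and 18 products (2.92% to 18.8%). No intercept gave 1, 2, 5 and 2 for the sites, against 17.6%, 13.3%, 32.1% and 22.7% of all genes. It gave 1 for the difference (13.1%), with SAM1 at 0.00691 for K16R. Without the quadruple mutant K8R gave 5 and the difference 4. From 0 to 1 substitution no centring and the parental strain as a term each gave 2, and leaving out MDY487 gave 3. Fewer samples enter where strains or arrays are left out; otherwise the cause was not tested. Leaving out each sample in turn, with the strain correlation held, gave 1 to 2 (2 without MDY487, with MET17) from 0 to 1 substitution and 1 to 3 from 1 to 2 (1 without K12R replicate 2, when MET28 was lost, and 3 without K5R/K16R replicate 1, when MUP3 was gained). The replicate block, with the labels' replicate number as a term, left the 30 product calls as they were and gave 7 genes for K8R and 8 for quadruple minus K5R/K12R/K16R, where MET16 (0.16) and MHT1 (0.19) lost their calls. It gave 55 instead of 56 calls over all mutants and changed no other call of a gene in the site, step and triple-mutant comparisons.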
